A study of Mus musculus with 2 samples.

Results

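A bidirectional promoter is a stretch of DNA from which a pair of genes is transcribed in opposite directions. Here such pairs were protein-coding genes on opposite strands, transcribed away from each other, whose 5′-most annotated transcription start sites lay at most 1 kb apart. The annotation gave 754 pairs on the autosomes and the X chromosome, which hold 1487 of 21755 coding genes, or 6.84%. Of these genes, 21 belonged to 2 pairs, so a few windows share their peaks. Each pair was measured over the stretch between its starts plus 250 bp to either side, and was set beside the promoters of the 20268 coding genes that belong to no pair.

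Open chromatin had been mapped by DNase-seq in whole ovary from female mice of 36 days, of the hybrid strain B6CASTF1/J, with 1 library for each of biological replicates 1 and 2 and no other group. Strain, sex, age and tissue are therefore shared by both libraries. DNase I cuts DNA that is not wrapped around histones, so peaks of cuts mark open sites, and short protected stretches inside a peak, called footprints, mark places where the enzyme was kept off. Whole ovary mixes cell types, and a site open in fewer cells and a site less open in each cell cannot be told apart. The labels number the females of the replicates differently, and the spread between the libraries is all that the SDs below measure. With 2 libraries the smallest two-sided p that an exact sign-flip permutation test can give is 0.5, so differences are given as values in each library, without p-values.

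In mammals, bidirectional promoters are mostly short, rich in CpG and poor in TATA boxes. They are known for housekeeping genes, among them genes of DNA repair, of mitochondria and of chromatin, and for the paired H2A and H2B genes of the histone clusters. RNA polymerase II starts at both edges of a shared nucleosome-free region, and the genes of a pair can be used together or separately.

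The libraries held 109169 and 114462 peaks in the longer of their deposited lists, with 301406 and 294269 footprints, in replicates 1 and 2. The value of a peak is the signal that the authors deposited with it; the sources used here do not say how it was scaled, so pairs and other promoters are compared within a library, and ratios between the libraries are set only beside those of other promoters. Ovarian markers were open at their promoters for 9 of 10 granulosa cell genes and 9 of 10 theca and steroidogenic genes, and for 1 of 12 genes of other tissues, against 66.5% of all coding genes by the same measure, a peak within 500 bp of any coding start in both libraries. The granulosa and theca list genes without a peak were Cyp19a1 and Hsd3b1. Values at the open genes of these lists ran from 0.632 and 0.491 at Fshr to 18.7 and 9.11 at Por, in replicates 1 and 2. Oocyte markers were open in 3 of 12 cases. Among those 3 was Gdf9, whose promoter is shared with a respiratory chain gene, and another was Kpna7, whose start region overlaps that of Arpc1a.

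The stretches between the starts of 10 pairs show what these promoters look like. They are read from the RefSeq genome GRCm38.p6, the reference of the C57BL/6J strain, on the plus strand from 5′ to 3′. The first gene of each name is transcribed leftwards from just before the stretch, and the second gene rightwards from just after it. Capitals mark bases that lay inside a footprint in both libraries. Hjurp/Trpm8 had the highest value of all pairs, and Uqcrq/Gdf9 holds an oocyte gene. For each of 4 consensus motifs, the pair of highest value with starts within 200 bp and a match overlapping a footprint in both libraries is shown, which are Senp8/Myo9a (the NRF1 consensus, matched by GCGCAAGCGC), Dcaf6/Mpc2 (the ZBTB33 palindrome), Rer1/Morn1 (CCGGAAG, the consensus of ETS factors) and Dtl/Ints7 (TGACGTCA, the cAMP response element). Mrps12/Sars2 carries 4 CCAAT boxes, Hist1h2ae/Hist1h2bg a TATAAA match, Col4a4/Col4a3 is a tissue-restricted pair of low value, and Rnf151/Rps2 had no peak. The pairs shown for their motifs and the last 3 were chosen after their values were seen.
Hjurp/Trpm8, chr1:88277634-88277660, plus strand: ggggagggacgagagggagggtccgcc
Uqcrq/Gdf9, chr11:53430832-53431022, plus strand: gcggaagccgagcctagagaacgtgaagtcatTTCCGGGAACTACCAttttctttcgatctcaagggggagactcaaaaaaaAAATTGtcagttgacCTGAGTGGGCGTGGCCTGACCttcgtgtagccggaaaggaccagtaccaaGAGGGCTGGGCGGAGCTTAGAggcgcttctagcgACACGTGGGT
Senp8/Myo9a, chr9:59750711-59750895, plus strand: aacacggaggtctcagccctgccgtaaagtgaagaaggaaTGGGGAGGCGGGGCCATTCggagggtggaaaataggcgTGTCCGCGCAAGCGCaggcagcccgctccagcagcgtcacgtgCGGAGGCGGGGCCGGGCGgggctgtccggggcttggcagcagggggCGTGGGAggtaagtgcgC
Dcaf6/Mpc2, chr1:165460476-165460636, plus strand: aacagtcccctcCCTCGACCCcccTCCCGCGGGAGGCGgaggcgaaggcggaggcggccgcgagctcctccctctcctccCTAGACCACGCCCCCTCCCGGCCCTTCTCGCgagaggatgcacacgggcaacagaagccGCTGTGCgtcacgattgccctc
Rer1/Morn1, chr4:155086383-155086576, plus strand: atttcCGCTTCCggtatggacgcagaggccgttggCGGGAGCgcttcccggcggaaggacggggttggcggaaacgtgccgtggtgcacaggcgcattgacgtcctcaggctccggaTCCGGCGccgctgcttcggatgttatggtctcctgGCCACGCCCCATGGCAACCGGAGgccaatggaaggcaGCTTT
Dtl/Ints7, chr1:191575545-191575635, plus strand: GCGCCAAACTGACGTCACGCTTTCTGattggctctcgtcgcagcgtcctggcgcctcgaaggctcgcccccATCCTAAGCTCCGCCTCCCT
Mrps12/Sars2, chr7:28741821-28741991, plus strand: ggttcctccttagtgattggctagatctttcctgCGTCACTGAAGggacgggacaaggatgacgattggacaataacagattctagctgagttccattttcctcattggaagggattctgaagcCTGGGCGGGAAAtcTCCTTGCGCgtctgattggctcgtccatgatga
Hist1h2ae/Hist1h2bg, chr13:23571221-23571395, plus strand: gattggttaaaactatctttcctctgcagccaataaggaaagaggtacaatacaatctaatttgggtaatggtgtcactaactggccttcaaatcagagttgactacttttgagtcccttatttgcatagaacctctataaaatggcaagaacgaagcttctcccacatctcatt
Col4a4/Col4a3, chr1:82586850-82586920, plus strand: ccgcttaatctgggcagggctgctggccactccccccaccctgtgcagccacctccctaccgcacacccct
Rnf151/Rps2, chr17:24718064-24718115, plus strand: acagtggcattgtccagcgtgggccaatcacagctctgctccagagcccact

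The sequences differ in how many of their bases were protected. In Uqcrq/Gdf9, 73 of 191 bases lay in a footprint of both libraries, and in Dtl/Ints7 46 of 91 did, including the cAMP response element at its left end. In Senp8/Myo9a 60 of 185 bases were protected, with the NRF1 match among them, while the nearby CACGTG match was not. The 27 bases between the starts of Hjurp and Trpm8 held no footprint, and neither did the stretch of Rnf151/Rps2, which had no peak at all. None of the 4 CCAAT matches of Mrps12/Sars2 overlapped a footprint in both libraries. Composition varied as well. The CpG ratio, which compares the CpG dinucleotides found with those expected from the C and G content, was 1.14 in the stretch of Dtl/Ints7, 0.290 in Col4a4/Col4a3 and 0.158 in Hist1h2ae/Hist1h2bg.

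Nearly all pairs were open in the ovary. A peak overlapped the window in both libraries in 720 of 754 pairs, or 95.5%, against 11458 of 20268 other coding promoters, or 56.5%, and 57.9% over all coding promoters. In replicate 1 the shares were 95.6% of pairs and 59.2% of other promoters, and in replicate 2 they were 95.8% and 58.6%. Of the remaining pairs, 3 had a peak in 1 library and 31 had none in either. The other promoters were measured over windows as long as the median pair window, from 379 bp upstream to 250 bp downstream of the start. Within each library the difference was 36.4 and 37.2 percentage points, and the SD of these was 0.551 (n = 2). The units are unlike, since a peak at either gene makes a pair open, and its value is that of the strongest peak over both. Another window covers the start of a single gene. Counted per start in open windows, 81.6% and 80.9% of pair starts lay in a peak in replicates 1 and 2. At other promoters 76.9% and 77.5% did.

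Open pairs also had stronger peaks. The median value of the strongest peak was 10.6 at pairs and 5.67 at other open promoters in replicate 1, and 5.39 and 3.19 in replicate 2. As a log2 ratio this was 0.90 and 0.75, or 0.83 ± 0.10 (SD, n = 2). The pairs were also far more alike. The upper quartile of their values was 2.02 and 1.78 times the lower one in replicates 1 and 2, against 5.17 and 3.88 times at other promoters. The highest pair reached 53.7 and 28.4, and the lowest open pairs in each library had 0.430 and 0.275. Of the pairs open in both libraries, 47.9% lay in the highest of 4 equal classes of mean value over all open promoters and 3.19% in the lowest, against 23.6% and 26.4% of other promoters.

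**Figure D1:**
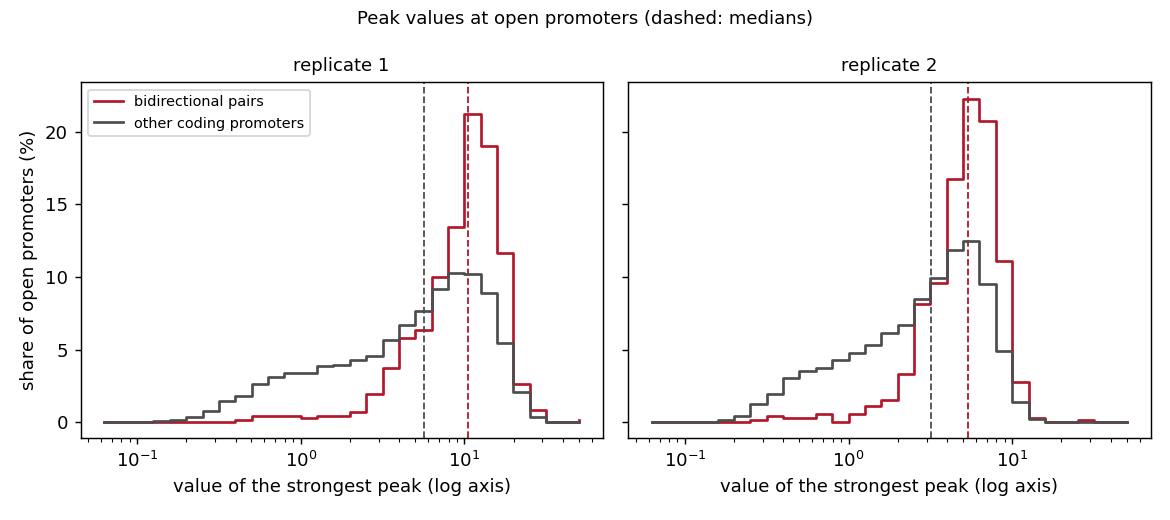
Share of open promoters (vertical axis, %) by the value of their strongest peak (horizontal log axis) in replicates 1 and 2, for bidirectional pairs (red) and other coding promoters (grey), with dashed lines at the medians. The pairs form a narrow hump around medians of 10.6 and 5.39, while the other promoters have a long tail of low values.

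Peaks at pairs were no wider than elsewhere. The median width of the strongest peak was 220 bp at pairs and at other promoters in replicate 1, and 260 bp at both in replicate 2. Pairs had 2 or more peaks in 26.9% ± 1.01 of open windows, against 18.6% ± 0.0794 (SD, n = 2). They held 6.44 ± 0.517 footprints per open window on average, against 5.14 ± 0.302, and the median density was 1.95 ± 0.0649 footprints per 100 bp of peak, against 1.64 ± 0.0347. The medians per window were closer, at 5 and 6 in pairs and 5 and 5 in other promoters, in replicates 1 and 2. Promoters open in both libraries were also split into 4 equal classes of mean value. From the lowest class up, pairs held 5.30, 6.21, 6.75 and 6.43 footprints on average. Other promoters held 3.83, 5.73, 5.77 and 5.88. Windows with a peak but no footprint made up 0.346% ± 0.0977 of open pairs and 3.78% ± 0.556 of other open promoters. Of the footprints in pair windows, 67.8% and 71.0% overlapped a footprint of the other library, against 61.6% and 66.6% in other windows.

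Promoters with a start of another kind beside them lay between these groups. The 875 coding genes with a divergent noncoding start within 1 kb were open in both libraries in 82.4% of cases, with median values of 8.77 and 4.43 in replicates 1 and 2, beside 10.6 and 5.39 at pairs. The 17155 genes with no other start within 1 kb were open in 52.3% of cases, at 5.17 and 2.94. A further 895 genes overlap at their 5′ ends with an opposite coding gene within 1 kb, and so are no members under the rule on 5′-most starts. Of them, 84.0% were open in both libraries. Set against the promoters with a divergent noncoding start alone, the log2 ratio of the medians was 0.27 instead of 0.83, and the difference in the share open was 13.1 points.

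CpG content moved with membership. The median CpG ratio of the 500 bp around the promoter was 0.834 for pairs and 0.521 for other promoters, and 57.2% of pairs fell in the highest of 4 equal classes of the CpG ratio over all promoters, against 23.8% of the others. Within that class 99.5% of pairs and 96.2% of other promoters were open in both libraries, and the log2 ratio of median values was 0.30 and 0.34 in replicates 1 and 2. In the next class the shares were 97.9% and 88.6%, and the ratios 0.81 and 0.67. The pairs stood out most where CpG was scarce. In the class above the lowest 77.4% of 62 pairs and 39.5% of other promoters were open, with ratios of 1.87 and 1.51. The lowest class held only 18 pairs, of which 5, or 27.8%, were open, against 6.17% of other promoters. With the classes weighted as the pairs fall into them, an alternative chosen after seeing the data, the differences were 8.52 points in the share open and 0.62 in log2 value, both smaller than over all promoters. The plain mean over the 4 classes, in which the 18 pairs of the lowest class weigh as much as the 431 of the highest, gave 18.0 points and a larger log2 difference of 1.26.

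How peaks covered a pair went with the distance between its starts. Starts were 1 to 987 bp apart, with a median of 129 bp and quartiles of 67 and 240 bp, and 618 pairs, or 82.0%, lay within 300 bp. A single peak contained both starts in 422 of 721 open pairs in replicate 1 and in 436 of 722 in replicate 2. Each start had its own peak in 73 and 57 pairs, 1 start alone lay in a peak in 186 and 182, and in 40 and 47 the peaks missed both annotated starts. In 374 of the 720 pairs open in both libraries, 1 peak contained both starts in both.

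That share fell with distance, in part by layout, since only a peak wider than the distance can contain both starts. It was 93.7% and 89.8% in replicates 1 and 2 among pairs up to 50 bp apart, 61.9% and 66.0% from over 100 to 200 bp, 22.3% and 34.0% from over 200 to 300 bp, and 0% above 500 bp. Over the same classes the share of open pairs with 2 or more peaks went from 12.6% and 13.4% to 72.6% and 76.2%. The windows themselves lengthen with the distance, which leaves room for more peaks. Values changed much less. The median value was lowest for the closest pairs, at 9.52 and 4.93, and highest from over 300 to 500 bp, at 12.7 and 5.99. At the 1 kb limit, Asphd1/Sez6l2, 981 bp apart, had 9.12 and 5.06, and Btf3l4/Txndc12, 987 bp apart, had 7.25 and 3.43. Just outside it, Gpr108/Trip10, 1009 bp apart, had 18.4 and 9.74, and Serpina7/4930513O06Rik, 1007 bp apart, had no peak.

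**Figure D2:**
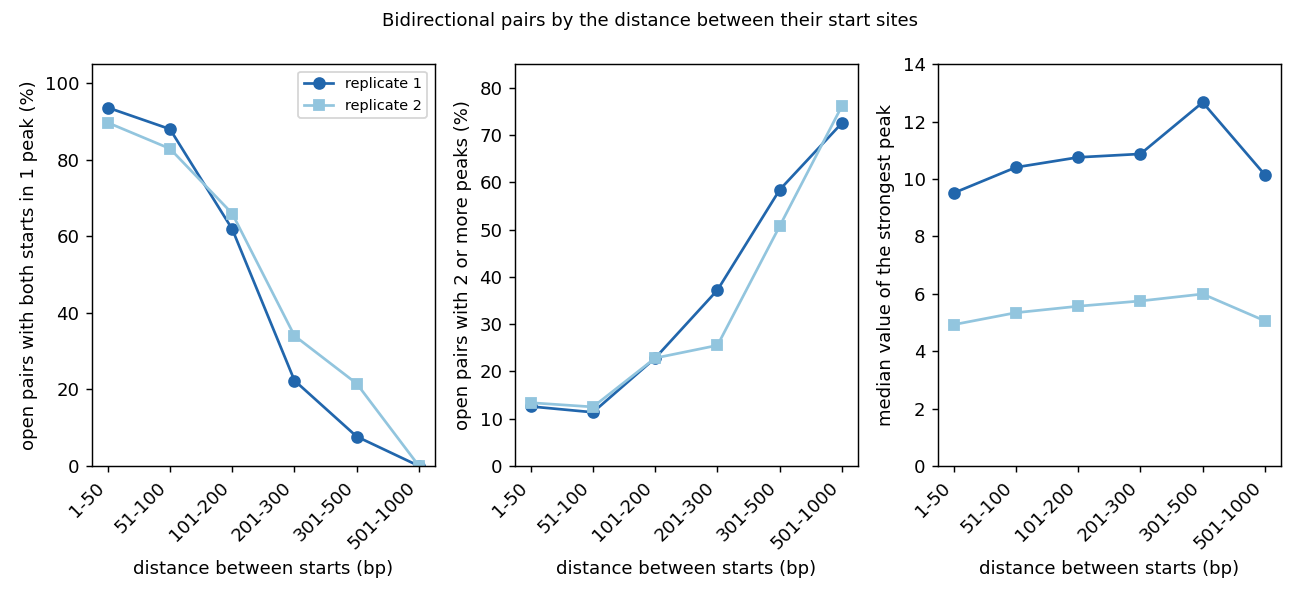
Bidirectional pairs in 6 classes of the distance between their start sites (horizontal axes, bp), with the share of open pairs whose starts lie in 1 peak, the share with 2 or more peaks (both %), and the median value of the strongest peak, as a point per replicate. The share in 1 peak drops from 93.7% and 89.8% to 0%, while the median value stays between 9.52 and 12.7 in replicate 1 and between 4.93 and 5.99 in replicate 2.

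The centre of the strongest peak lay between the starts in 469 of 721 open pairs, or 65.0%, in replicate 1 and in 422 of 722, or 58.4%, in replicate 2. In the other pairs it lay on the gene side of 1 start. Its median distance from the midpoint of the starts, regardless of side, was 39.5 and 51 bp. Each pair is counted below from both of its starts, so any site between them lies upstream of both, and a shift of the pairs to the upstream side follows in part from this layout. At 100 bp downstream of the start 25.6% and 34.6% of pair starts were under a peak, against 42.1% and 49.6% of other starts, and at 200 bp 13.5% and 18.6% against 29.8% and 35.5%. At 100 bp upstream the order was turned, with 81.8% and 84.3% of pair starts and 67.1% and 70.7% of others. Genes with several annotated starts could spread the picture, since only the 5′-most was used. Among genes with 1 annotated start, the shares 100 bp downstream were 23.2% and 33.2% at pairs and 38.5% and 45.7% at others.

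Footprints were densest just upstream of the starts. In the 20 bp before a start, 38.8% and 38.2% of pair starts lay under a footprint, against 27.2% and 26.5% of other starts. At 200 bp upstream the shares were 19.7% and 18.4% at pairs and 10.4% and 9.17% at other promoters. Downstream the curves crossed, and at 200 bp inside the gene pairs had 6.19% and 5.97%, against 7.96% and 7.40%.

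**Figure D3:**
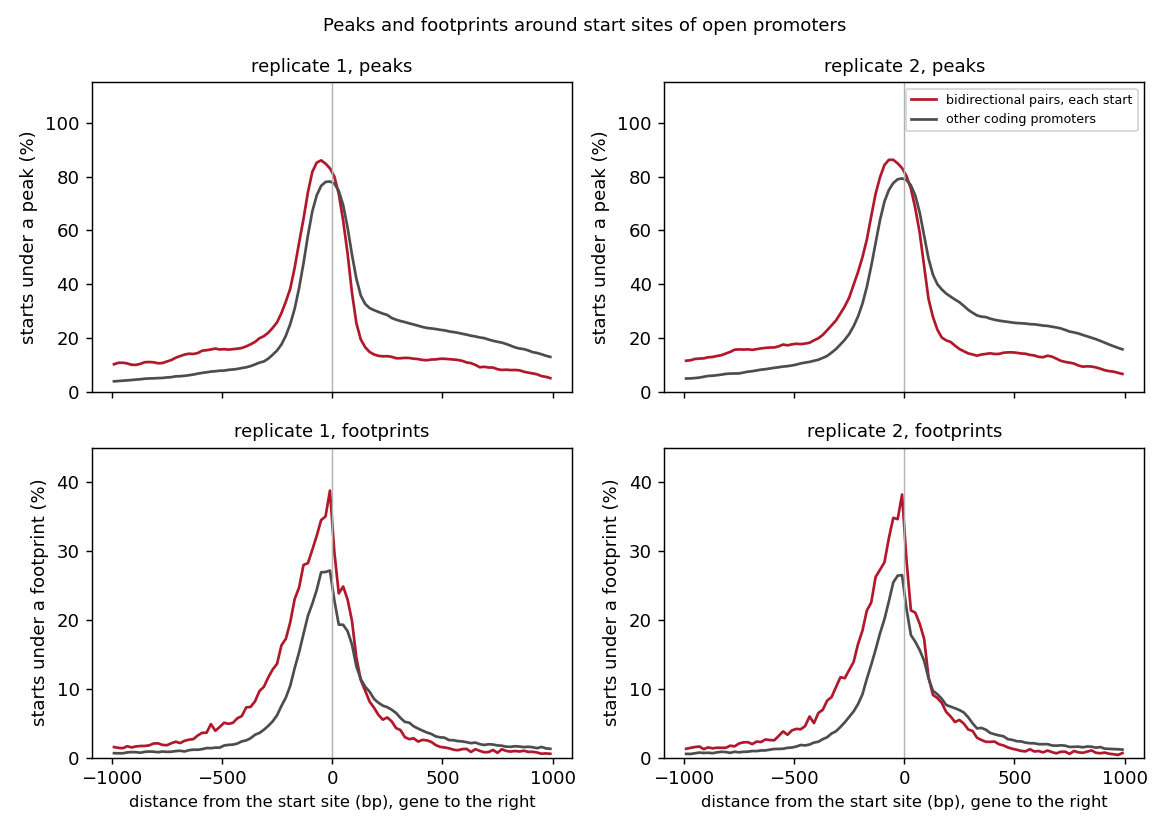
Share of starts of open promoters (vertical axes, %) that lie under a peak (top) or a footprint (bottom), by distance from the start in bp with the gene to the right, for each start of bidirectional pairs (red) and other coding promoters (grey), in replicates 1 and 2. The pairs are counted from both starts, and inside the gene their curves drop to 25.6% and 34.6% under a peak at 100 bp, against 42.1% and 49.6%.

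In 42 pairs each start had a separate peak in both libraries, at a median distance of 587.5 bp, which allows the sides to be compared. The same side was stronger in both libraries in 37 of the 42, or 88.1%. In 15 of them that side was over 2-fold stronger in both. Actn3, which encodes the actinin of fast muscle fibres, and Zdhhc24, of the palmitoyltransferase family, start 759 bp apart, and their values in replicates 1 and 2 were 12.1 and 6.88 at Zdhhc24 and 0.899 and 0.563 at Actn3. For Foxa3, a forkhead factor of liver and gut, and Sympk, a scaffold of mRNA 3′ end formation, they were 11.7 and 4.83 at Sympk and 2.38 and 1.24 at Foxa3. In both pairs, which were picked after their values were seen, the weak side was the gene known from another tissue. Its peak was present in both libraries. This did not hold throughout, since Abca3, known from the lung, was the stronger side of its pair, with the values given below.

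Further pairs had unequal sides. Zfp526, a zinc finger gene, had 13.4 and 6.54 and its partner Dedd2, a death effector domain gene, 0.853 and 0.537. Abca3, a lipid transporter known for lung surfactant, had 11.4 and 5.07, and Abca17 had 0.795 and 0.452. The reverse side was stronger at Fhod1/Slc9a5, with 1.78 and 0.949 at Slc9a5, a sodium-proton exchanger, and 11.2 and 4.95 at the formin gene Fhod1. These pairs were picked as examples after their values were seen.

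**Figure D4:**
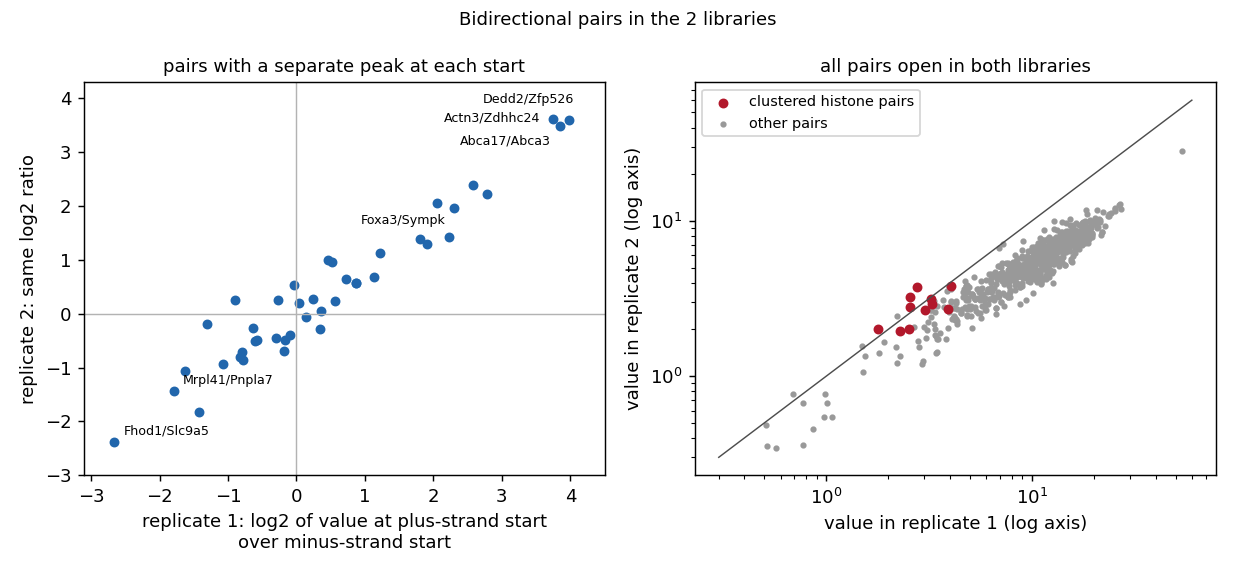
Left, the 42 pairs with a separate peak at each start in both libraries, with the log2 ratio of the value at the plus-strand start over that at the minus-strand start in replicate 1 (horizontal) and replicate 2 (vertical), 37 of them with the same sign in both. Right, the value of every pair open in both libraries in replicate 1 and replicate 2 (log axes, line of equality drawn), where the 11 clustered histone pairs (red) lie near the line and most other pairs (grey) below it.

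The strongest pairs were Hjurp/Trpm8, Fbh1/Ankrd16, Apaf1/Ikbip, Pdhx/Apip, Dnajb4/Fubp1 and Fam53a/Gm9903. Hjurp, the chaperone that loads the centromeric histone, starts 28 bp from Trpm8, the cold-sensing channel of sensory neurons, under 1 peak of 240 bp in both libraries with values of 53.7 and 28.4. The next pair in replicate 1 was Apaf1, the core of the apoptosome, with Ikbip, at 27.3 and 11.9 and a distance of 170 bp. Fbh1, a DNA helicase, and Ankrd16 had 26.9 and 12.8. Pdhx, a component of the pyruvate dehydrogenase complex, and Apip, of the methionine salvage pathway, had 26.5 and 12.6. Hjurp/Trpm8 stood apart from the next pairs in both libraries, and the values of the other 5 lay close together in each library.

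Of 16 pairs listed as known bidirectional pairs of mammals, 7 met the rule. All 7 were open in both libraries, as were 95.5% of all pairs. Nadsyn1, which makes NAD, and Dhcr7, the last enzyme of cholesterol synthesis, had 22.0 and 8.45. Atm, the kinase of the double-strand break response, and Npat, the coactivator of histone genes, start 307 bp apart and had 19.6 and 8.15. Pdcd10/Serpini1 had 17.3 and 8.46 over 691 bp. Mcm4, a subunit of the replicative helicase, and Prkdc, the kinase of end joining, had 15.8 and 8.09, with 2 peaks in each library. Mrps12/Sars2, a mitochondrial ribosomal protein and a mitochondrial tRNA synthetase, had 10.5 and 6.28. Brca1/Nbr1 had 6.86 and 5.16, with a strongest peak of 180 bp in replicate 1 and 800 bp in replicate 2. Col4a4/Col4a3, the basement membrane collagens of kidney and other organs, had the lowest values of the 7, at 2.29 and 1.35.

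The other 9 listed pairs were not members. In 8 of them the annotated 5′-most starts overlap by 21 to 277 bp rather than diverge, and those shared starts were open in both libraries. So were 84.0% of the 895 genes with such overlapping 5′ ends. The highest values among them were 18.7 and 8.54 at Hspd1/Hspe1, the mitochondrial chaperonins, and 17.3 and 8.25 at Tap1/Psmb9, of antigen processing. In the other, Acat2/Tcp1, the plus-strand gene starts far before the minus-strand gene, with 43929 bp between their closest coding starts. These genes are transcribed towards each other, so the pair does not have the layout of a bidirectional promoter. Col4a1/Col4a2, the ubiquitous counterpart of the collagen pair above, had 3.72 and 1.73. When any annotated coding start was allowed to define a pair, 1096 pairs resulted, and 94.0% of them were open in both libraries.

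Ovarian list genes occurred in 2 pairs. Uqcrq, a subunit of respiratory complex III, and Gdf9, the growth factor that oocytes send to granulosa cells, start 192 bp apart. Their shared peak of 360 and 380 bp had values of 14.7 and 8.57, and it contained 1 of the starts in each library. Obsl1, of the cytoskeletal obscurin family, and Inha, the inhibin alpha subunit of granulosa cells, start 625 bp apart at a CpG ratio of 0.186, in the lowest CpG class. They had 2 peaks in each library, the stronger at 4.55 and 2.70. Bmp15, the oocyte partner of Gdf9, is in no pair and had no promoter peak.

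Pairs with the most footprints had several or wide peaks. B3galt6/Sdf4, of glycosaminoglycan synthesis and the Golgi, held 32 and 23 footprints in replicates 1 and 2, Nlgn2/Tmem256 18 and 27, and Ap3m1/Adk, an adaptor subunit and adenosine kinase, 15 and 25. P3h4/Fkbp10, both of collagen folding, held 19 and 16 in 3 peaks. The widest strongest peaks were at Sobp/9030612E09Rik, with 580 and 840 bp, Tshz1/Zadh2, with 740 and 480 bp, and Trpc5/Rtl4, with 580 and 600 bp. Nr2e1/Ostm1 reached 837 bp in replicate 1 and 252 bp in replicate 2, at values of 0.690 and 0.772, and Nr2e1 is an orphan receptor known from neural stem cells.

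Some gene classes were met in pairs more often than others. These classes were defined by gene symbol after the peaks had been seen, and are counted beside the 6.84% of all coding genes. Clustered histone genes were in pairs in 27 of 67 cases, or 40.3%, and 13 of their 14 pairs join a histone gene to another. DNA repair genes followed with 20 of 68, or 29.4%, respiratory chain subunits and assembly factors with 23 of 94, or 24.5%, and mitochondrial ribosomal proteins with 18 of 78, or 23.1%. Proteasome genes were in pairs in 8 of 50 cases and cytosolic ribosomal proteins in 8 of 82, and none of 1135 olfactory receptors or 57 clustered protocadherins was. Outside the histones and collagens, each of these pairs joined a gene of the class to a gene outside it.

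Most of these pairs were open in both libraries, as were 95.5% of all pairs, so the counts below differ little from that share. The medians of all open pairs were 10.6 and 5.39 in replicates 1 and 2. All 18 pairs with a mitochondrial ribosomal protein were open in both libraries, with medians of 11.2 and 5.53, from Eme2/Mrps34 at 4.04 and 3.01 to Mrpl49/Fau at 17.7 and 8.13. Of 23 with a respiratory chain gene 22 were, with medians of 12.0 and 5.93, led by Tepsin/Ndufaf8 at 18.4 and 11.7. Ndufa5/Asb15 had a peak in replicate 2 alone, at 3.54. DNA repair pairs were open in 19 of 20 cases, with medians of 10.9 and 5.93. Lig4/Abhd13, with the ligase of end joining, had 17.2 and 8.65 and Palb2/Dctn5, with a partner of Brca2, 15.3 and 10.3. The lowest of them, Rad51c/Tex14, had 0.769 and 0.360, and Tex14 is known from germ cells. Pinlyp/Xrcc1 had a peak in replicate 1 alone, at 0.430. Pairs with a cytosolic ribosomal protein were lower, with 7 of 8 open and medians of 6.72 and 4.35, and so were the 8 proteasome pairs, all open, with 8.13 and 4.31.

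Histone pairs had the lowest medians of these classes, apart from the single collagen pair. Of 14 pairs 11 were open in both libraries, beside 95.5% of all pairs. The medians of the 11 were 2.75 and 2.79. Values ran from 1.78 to 4.03 in replicate 1 and from 1.96 to 3.80 in replicate 2. None reached the median of all pairs in either library. Pairs in general had lower values in replicate 2, with a median log2 difference of -0.94 over 720 pairs (SD 0.30), beside -0.87 over 11458 other promoters, and 7 pairs had a ratio above 0. Of those 7, 4 were histone pairs, and the histone median was -0.08, ranging from -0.52 to 0.46. The 38 clustered histone genes that are in no pair and open had a median of -0.37, and the 82 other pairs of no higher mean value than the highest histone pair had -0.72. Hist1h2ag/Hist1h2bj had the highest ratio of all pairs, at 2.75 and 3.78. Many of these genes are near-identical copies, and the sources used here do not say how reads that match several copies were placed. With 1 library per replicate, whether the animals differed was not tested.

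The lowest ratios belonged to pairs of middle value. Tbc1d10b/Mylpf, whose second gene codes for a muscle myosin light chain, had 12.6 in replicate 1 and 3.98 in replicate 2. Spata1/Gng5 had 9.36 and 3.10, Baz2b/March7 8.75 and 2.91, and Gfer/Noxo1 10.2 and 3.42. Their CpG ratios were 1.01 to 1.10, above the pairs' median of 0.834.

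Several short motifs were found in a larger share of pair windows than of other windows. A pair window was centred between the starts of both genes, and another window was placed by the start of a single gene. The shares are therefore per window and not per start, and what the second start adds was not tested. In windows of 500 bp, searched on both strands, the letters CCGGAAG were found in 34.9% of 720 open pairs and 19.5% of 11458 open other promoters. The shares for the NRF1 consensus, which reads GCGCAAGCGC in Senp8/Myo9a, were 20.3% and 10.5%, for AAGATGGC, the consensus of YY1, 11.5% and 5.66%, and for the ZBTB33 palindrome 2.64% and 0.96%. Over all windows, open or not, CCGGAAG was in 33.6% of pairs and 12.7% of other promoters, and the NRF1 consensus in 19.8% and 6.18%. Within the highest CpG class the open shares were 38.5% and 24.8% for CCGGAAG, 26.1% and 17.1% for the NRF1 consensus, and 12.6% and 7.69% for AAGATGGC. No consensus searched contains another, and the motif list was chosen after the peaks had been seen.

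Common elements differed less. GGGCGG, the GC box, was in 80.4% of open pairs and 74.6% of other open promoters, but within the highest CpG class in 83.0% and 87.0%, so that its order was turned there. CCAAT was in 52.9% and 46.5%, TGACGTCA in 5.00% and 3.69%, CACGTG, the E box, in 14.6% and 13.4%, and the ZNF143 core in 0.833% and 0.602%. TATAAA was the rarer one at pairs, with 6.39% and 10.4%, and so was TGANTCA, the AP-1 site, with 5.69% and 6.89%. Within the highest CpG class TGANTCA was in 4.43% and 4.54%. In the class below it TGANTCA was in 7.14% and 6.68%, TGACGTCA in 2.52% and 3.47% and CACGTG in 12.2% and 13.5%, so these orders were turned there, while TATAAA stayed rarer at pairs, with 7.14% and 10.1%. In the orientation of the gene and 15 to 45 bp upstream of the start, TATAAA occurred at 5 of 1508 pair starts, or 0.332%, against 575 of 20268 other starts, or 2.84%, and 122 of 11458 open ones, or 1.06%. These 5 were Hist1h2bg, Hist1h2ac, Hist2h2ac, Duoxa2 and Foxa3, of which 3 are histone genes and Foxa3 is the weak side of its pair.

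**Figure D5:**
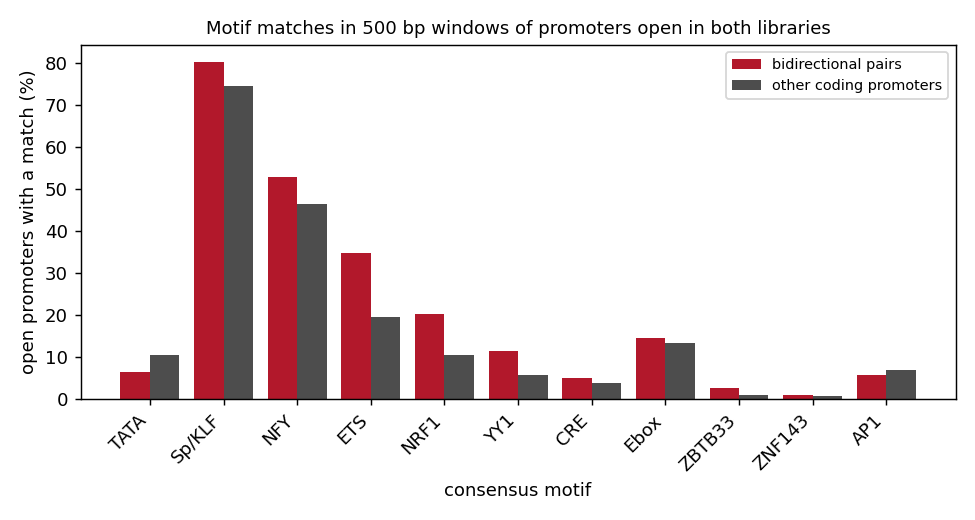
Share of promoters open in both libraries (vertical axis, %) with a match to each of 11 consensus motifs in a 500 bp window, for bidirectional pairs (red) and other coding promoters (grey). The ETS bar is at 34.9% against 19.5% and the NRF1 bar at 20.3% against 10.5%, while the TATA bar is lower at pairs, at 6.39% against 10.4%.

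Where the matches lay depended on the motif. Between the starts CCAAT occurred 3.95 times per kb, against 0.92 in the 250 bp flanks, and GGGCGG 5.62 against 2.92. The NRF1 consensus had 0.641 per kb between the starts and 0.294 in the flanks, and TGACGTCA 0.150 and 0.0398. AAGATGGC showed the opposite order, with 0.102 between the starts and 0.249 in the flanks, which hold the first transcribed bases. Within peaks, matches differed in how often a footprint covered or touched them. Of NRF1 matches at pairs 93.7% and 87.4% did in replicates 1 and 2, of TGACGTCA 86.8% in both, of CCGGAAG 58.1% and 61.1%, and of CCAAT 41.8% and 40.4%. Any stretch of 7 bases touched one in 43.2% and 40.4% of cases, close to the share for the shorter CCAAT matches. The NRF1 and TGACGTCA matches are longer than 7 bases, and a longer stretch touches a footprint more readily. No share was taken for stretches of their length. At other promoters the shares for NRF1 matches were 92.3% and 91.4%, and any 7 bases gave 35.4% and 32.3%. Letters alone do not tell which protein sat on them.

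Within the pairs, median values differed with some motifs more than with others. Pairs with the NRF1 consensus had medians of 12.5 and 5.84 in replicates 1 and 2, against 10.1 and 5.33 for pairs without it. With GGGCGG they had 11.0 and 5.61, against 8.26 and 4.83. The 36 pairs with TGACGTCA had 12.2 and 6.54, against 10.5 and 5.37, and the 46 with TATAAA had 8.64 and 4.72, against 10.7 and 5.45. For CCGGAAG the medians were 10.3 and 5.44 with a match and 10.7 and 5.37 without, so the motif with one of the clearest excesses at pairs did not go with a higher value in both libraries. Pairs with and without a motif were not matched for CpG content. The NRF1 consensus was in 26.1% of open pairs of the highest CpG class and 13.9% of the class below. Median values of these classes were 11.1 and 5.63, against 10.1 and 5.38. What CpG content adds to the differences by motif was not tested.

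The 31 pairs with no peak in either library were poor in CpG, with a median ratio of 0.273 against 0.840 for the 720 pairs open in both, at a similar median distance of 145 bp against 127.5 bp. In 13 of them 1 gene had a peak in both libraries at another annotated start. Rps2, a protein of the small ribosomal subunit, had none at the start it shares with Rnf151, of the testis, but 14.6 and 6.65 at another start. Ccnt1, the cyclin of the elongation factor P-TEFb, had 17.8 and 9.08 at another start, and Dgcr2, whose partner Tssk2 is a kinase of spermatids, had 17.8 and 9.01. In these genes the open start was thus another annotated one, outside the pair's window.

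In the other 18 pairs no coding start of either gene had a peak in both libraries. Among them were Pecam1/Milr1, of endothelium and mast cells, Kirrel2/Nphs1, of the kidney filter, Smyd1/Cd8b1, of muscle and T cells, and 3 histone pairs, one of them the testis pair Hist1h2ba/Hist1h2aa. By name the first of the 31 pairs were 4930430F08Rik/1700017N19Rik, 4931428L18Rik/Pih1d3, Asb12/Pfn5 and Aspa/Gm49340. On the X chromosome 15 of 20 pairs were open in both libraries, beside 720 of 754 in all. The weakest open pairs were Trpc5/Rtl4 at 0.515 and 0.353, Bhmt2/Dmgdh, both of one-carbon metabolism in liver, at 0.567 and 0.347, Ifit1bl2/Ifit1, induced by interferon, at 0.508 and 0.484, and Rad51c/Tex14, with a DNA repair gene, at the values given above. A missing peak in whole tissue does not show that a promoter was closed in every cell type.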

How the data were processed

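DNase-seq peaks and footprints of 2 ovary libraries were used as deposited, on mm10 per the labels. The authors deposited a signal value with each peak. The sources used here do not give its scaling, the aligner or the peak caller. Intervals were called for each library from its own alignments, per the text deposited with the files. Footprints carry a deposited score of 0.01 in every line, so only positions were used. Read depth is not known from these files, and no counting intervals are given.

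Pairs were built from the 5′ ends of GENCODE M21 protein-coding genes, and such an end can belong to a noncoding transcript of the gene. A window was open when a peak of the longer list overlapped it by at least 1 base, and its value is that of the strongest such peak. Footprints were counted when centred in those peaks. CpG ratios and motifs were read from RefSeq GRCm38.p6 in 500 bp windows. Python 3.11.15, numpy 2.4.6 and pandas 2.3.3 were used, and the overlap and pair counts were checked on simulated intervals.

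Windows and genes are not replicates, so no test was made between them, and values are mean ± SD over the libraries. Members and lists were chosen with earlier results of these data known. Pairs were named by rule: 16 pairs listed as known, the 6 of highest value, the 4 with most footprints and the 4 widest. The rule also named the 4 highest and 4 lowest library ratios, the weakest 4 and the first 4 by name without a peak. Pairs with ovarian list genes and those nearest the 1 kb limit were named too. Others are said to be picked with their values known, or stand as examples of their class. Alternatives covered the peak list, window, distance, start choice, comparison promoters, CpG content and each replicate.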

Additional observations from a re-analysis of the deposited data

How the results depend on the processing

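The higher share of open windows at pairs, 39.0 points in both libraries together, kept its direction in all 14 alternatives, and the higher median value, 0.83 on the log2 scale, in all 13. Leaving out a replicate gave differences of 36.4 to 37.2 points, log2 ratios of 0.75 to 0.90, a width difference of 0 bp, 0 to 1 footprint, and 58.5% to 60.4% of pairs with both starts in 1 peak. With the shorter peak list the difference in openness was 41.8 points and the log2 ratio 0.69. It was 41.6 points when the peak's midpoint had to lie in the window, 36.2 points with flanks of 500 bp and 37.6 points with any coding start, where 57.8% of pairs had both starts in 1 peak; with starts within 300 bp apart 70.6% did. Against promoters with no other start within 1 kb the differences were 43.2 points and 0.95, and against those with a divergent noncoding start 13.1 points, 0.27 and -10 bp in width. As plain means over 4 CpG classes they were 18.0 points, 1.26, 23 bp and 1.5 footprints. Chosen after seeing the data were the classes weighted by the pairs (8.52 points, 0.62 and 2.04 bp), the classes without the lowest, which holds few pairs (16.9 points and 13.3 bp), and the other promoters without overlapping coding heads (40.2 points). Comparison set and CpG content moved openness and value most, and the distance limit moved the share with both starts in 1 peak most. No paired analysis was possible because the study has 1 group. The value's scaling is unknown and 2 libraries give a coarse SD. Annotated starts may not be those used in the ovary, and peaks and footprints depend on callers and thresholds that the sources used here do not state.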
